A study of Bos taurus with 16 samples.

Results

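The intake contrast at low gain set the livers of 4 low gain-high intake steers against those of 4 low gain-low intake steers, which are 8 of the 16 arrays of the series. The 8 arrays were taken by their group labels alone, and the question was which hepatic transcripts differed with intake among steers that gained little weight. All steers were crossbred beef steers, 11 months old at the start of a trial in which a high-concentrate finishing diet with wet distillers grains was fed ad libitum for 78 days. Low gain-high intake steers ate much and gained little, and low gain-low intake steers ate little and gained little. The steers had been selected from a larger cohort for lying far from the joint mean of gain and intake, and the intake and gain of each animal were not analysed here, so each group is known only by its class. According to the study's methods, Brahman and Santa Gertrudis ancestry occurred in the low gain-high intake group but not in the low gain-low intake group, while Brown Swiss and Red Angus ancestry occurred in the low gain-low intake group but not in the low gain-high intake group, so breed and intake cannot be fully told apart. Each steer gave 1 sample of the right liver lobe and 1 Bovine Gene 1.1 ST array, which measures transcripts with many short probes along each gene.

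Among these livers, genes of cholesterol synthesis had lower values in low gain-high intake steers, with log2 differences of -2.32 for HMGCS1, -1.68 for SQLE and -1.66 for FDFT1. IGFBP1, a binding protein for insulin-like growth factors, was higher by 2.54 on the same scale and the metallothionein MT1A by 2.23. The scavenger receptor MARCO, the transglutaminase TGM2 and the sugar dehydrogenase UGDH were lower with no overlap between the groups. Genes of glucose production, fatty acid oxidation and the urea cycle had no calls at the study's nominal threshold (P of 0.05 or less), and no transcript passed adjustment for all those tested.

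The liver makes much of the cholesterol of the body through the mevalonate pathway, in which acetyl-CoA is built up to mevalonate, isoprenoid units, squalene and then sterols. The enzymes of the pathway are transcribed together under SREBP-2, a transcription factor that is released from the endoplasmic reticulum when sterols in the cell are low, and insulin and feeding act on the related SREBP-1c, which drives fatty acid synthesis.

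Values were log2 expression values for 26773 transcript clusters, of which 18790 carried a single gene symbol, for 18444 symbols in all. The values ran up to 22.8, a wide range for log2 array values, so differences are given on the deposited log2 scale and not as folds. Array medians were 7.41 to 7.47 in the first 8 columns of the value table and 7.16 to 7.28 in the last 8. Low gain-high intake steers 1 and 2 were in the first 8 columns and steers 3 and 4 in the last 8, whereas low gain-low intake steers 1, 2 and 3 were in the first 8 and steer 4 alone was in the last 8. Pairs of low gain arrays correlated across transcript clusters at 0.978 to 0.982 within the first 8 columns and at 0.939 to 0.97 across the 2 sets of columns. Low gain-high intake steer 4 stood apart, with correlations of 0.941 to 0.958 with the other arrays of its group. Each main result is therefore given as deposited and with column position as a block (block). For part of the genes it is also given without a steer that decided it.

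No transcript cluster passed an adjusted P of 0.05 by limma (0 of 26773, 0.0%; the lowest adjusted P was 0.308), also with the block, with quantile normalization or in the one-way model without moderation. At the study's threshold, a nominal P of 0.05 or less, limma called 868 transcript clusters (3.24%), against 1339 for a uniform distribution of P values. Of these, 496 were higher and 372 lower in low gain-high intake steers. With the block, 1257 transcript clusters (4.7%) passed, 864 higher and 393 lower, and 764 of them were shared with the fit without the block. The share of higher calls was 57.1% as deposited, 68.7% with the block, 48.0% after quantile normalization, 45.6% after subtraction of each array's median and 36.1% when dim transcript clusters were left out, so the balance of directions moved with the scaling and the block. Among gene symbols, 279 (1.51%) were higher and 217 (1.18%) lower at nominal P of 0.05 or less, and 532 (2.88%) were higher and 231 (1.25%) lower with the block. All 4 low gain-high intake steers lay above all 4 low gain-low intake steers for 180 symbols (0.976%) and below them for 108 symbols (0.586%). These shares are the background for each count below. A single gene was also tested by exchanging the 8 steers between the groups in all 70 partitions (exact P, two-sided), of which the smallest possible is 0.0286. Of the 60 genes named here at nominal P of 0.05 or less, 31 also had an exact P of 0.05 or less, and 33 did when steers were exchanged only within their set of columns. An exact P of 0.0286 arises where the groups do not overlap. TGM2, PLA2G7, TSKU, UGDH and CABYR were named for that lack of overlap. Their exact P was therefore fixed by the choice and is no further evidence. Most of the other genes were named for a small P by limma on the same arrays. Their exact P follows in part from that choice and is no independent evidence.

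The difference depended on how strongly a gene was expressed. Over the 4611 symbols with the lowest means, the median difference was 0.07, and it was -0.14 over the 4611 symbols with the highest means. With the block the same medians were 0.09 and -0.05, and after quantile normalization they were 0.02 and -0.03. Lists of strongly expressed liver genes therefore started from a median below that of all symbols, -0.02, and the plot of list medians shows the quantile-normalized median of each list of at least 20 genes. The highest values were also shared by many transcript clusters. In the first 8 columns, 34 to 58 transcript clusters of a low gain array lay within 0.05 of its highest value of 20.96 to 21.48, and in the last 8 columns 5 to 10 lay that near to highest values of 22.2 to 22.65. Differences of genes at this upper end, such as ALB, TTR, C3 and MGST1, may be limited by the top of the scale, which was not tested.

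**Figure D1:**
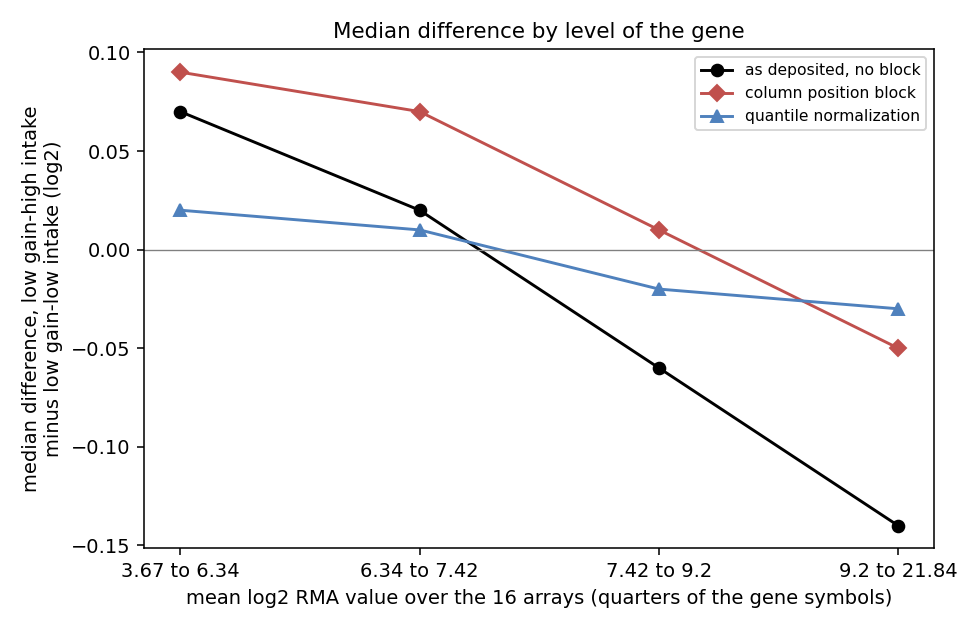
Median log2 difference (low gain-high intake minus low gain-low intake, vertical axis) over 4 bins of 4611 gene symbols by their mean log2 value over the 16 arrays (horizontal axis), as deposited (black circles), with column position as a block (red diamonds) and after quantile normalization (blue triangles). As deposited, the median goes down from 0.07 in the dimmest bin to -0.14 in the brightest, and after quantile normalization it stays between 0.02 and -0.03.

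Genes of cholesterol synthesis were lower in low gain-high intake steers. Of the 23 genes of the cholesterol synthesis and uptake list on the array, 21 had a lower mean in low gain-high intake steers, and 9 (39.1%) passed nominal P of 0.05 or less, all of them lower, against 1.18% lower calls among all symbols. The median difference of the list was -0.70, against -0.02 over all symbols. With the block, 9 again passed, all lower (background 1.25%), and the median was -0.73, and after quantile normalization 6 passed and the median was -0.53. The count was 4 when low gain-low intake steer 2 was left out and 5 when low gain-high intake steer 4 was, and it was 7 to 10 when any other single steer was. The mean level of the list was 12.87, 12.24, 12.09 and 11.94 in low gain-high intake steers 1 to 4, against 12.6 to 13.7 in low gain-low intake steers, with steer 2 the highest and steer 4 the lowest. Low gain-high intake steer 1 thus lay among the low gain-low intake steers, and the other 3 lay below all of those. In a piece of liver, fewer cells of a type and less RNA per cell cannot be told apart.

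In the early part of the pathway, HMGCS1, which makes HMG-CoA, had the largest difference of the list. Its log2 values were 16.93, 14.49, 14.19 and 14.23 in low gain-high intake steers, against 17.17, 18.45, 16.18 and 17.32 in low gain-low intake steers. Only low gain-high intake steer 1 reached into the range of the low gain-low intake group, and the difference was -2.32 ± 0.76 (SE, limma nominal P = 0.0076, exact P = 0.0571; with the block -2.42, P = 0.00781). ACAT2, the cytosolic thiolase that supplies acetoacetyl-CoA, had 14.70, 14.59, 14.64 and 14.07 in low gain-high intake steers, against 14.96, 15.78, 14.99 and 15.31 in low gain-low intake steers. Its groups did not overlap, and ACAT2 was the only one of the 9 genes with an exact P of 0.05 or less, with a difference of -0.76 ± 0.32 (SE, limma nominal P = 0.03, exact P = 0.0286; with the block -0.76, P = 0.0364), although after quantile normalization P was 0.0838. MVK, mevalonate kinase, averaged 9.96 ± 0.65 in low gain-high intake steers and 10.96 ± 0.46 in low gain-low intake steers (SD, n = 4 each), a difference of -0.99 that was -0.89 with the block. MVK did not pass without low gain-high intake steer 4 (-0.77) or without low gain-low intake steer 2 (-0.81). IDI1, which interconverts the isoprenoid units, had 15.22, 14.62, 13.58 and 13.06 in low gain-high intake steers, against 15.31, 16.28, 15.51 and 14.87 in low gain-low intake steers, with a difference of -1.37 ± 0.43 (SE, limma nominal P = 0.0059, exact P = 0.0571; with the block -1.21, P = 0.0072).

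At the branch to sterols, FDFT1, squalene synthase, averaged 13.37 ± 0.92 in low gain-high intake steers and 15.03 ± 0.97 in low gain-low intake steers (SD, n = 4 each), a difference of -1.66 that was -1.67 with the block. SQLE, squalene epoxidase, had 15.18, 12.92, 13.33 and 13.81 in low gain-high intake steers, against 15.21, 16.43, 15.21 and 15.12 in low gain-low intake steers. The groups overlapped only through low gain-high intake steer 1, and SQLE had the smallest nominal P of the list, with a difference of -1.68 ± 0.52 (SE, limma nominal P = 0.00537, exact P = 0.0571; with the block -1.74, P = 0.00609). LSS, which closes the squalene ring to lanosterol, was between 10.86 and 11.09 in low gain-high intake steers and between 11.23 and 12.45 in low gain-low intake steers. The groups of LSS did not overlap (limma nominal P = 0.103 over all 16 arrays and 0.0378 over the 8 low gain arrays alone, exact P = 0.0286). Among the enzymes that turn lanosterol into cholesterol, CYP51A1 averaged 12.47 ± 0.79 in low gain-high intake steers and 13.91 ± 0.49 in low gain-low intake steers, and NSDHL averaged 13.42 ± 0.91 in low gain-high intake steers and 14.64 ± 0.77 in low gain-low intake steers (SD, n = 4 each). CYP51A1 did not pass without low gain-high intake steer 2 (-1.31), 3 (-1.21) or 4 (-1.43), or without low gain-low intake steer 2 (-1.20). The difference of NSDHL, -1.22, was -0.79 with low gain-high intake steer 4 left out and -0.92 with low gain-low intake steer 2 left out. NSDHL passed in neither of these fits. SC5D was at 19.04 ± 0.65 in low gain-high intake steers and 19.65 ± 0.31 in low gain-low intake steers (SD, n = 4 each), and its nominal P of 0.0483 by limma was 0.0571 with the block (exact P = 0.2), and its difference of -0.61 was -0.36 without low gain-high intake steer 4. The other steps were measured without passing the threshold, such as MSMO1 with a difference of -0.71 (limma nominal P = 0.104, exact P = 0.114; with the block -0.86, P = 0.038) and DHCR7, the last enzyme of one branch, with a difference of -0.84.

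**Figure D2:**
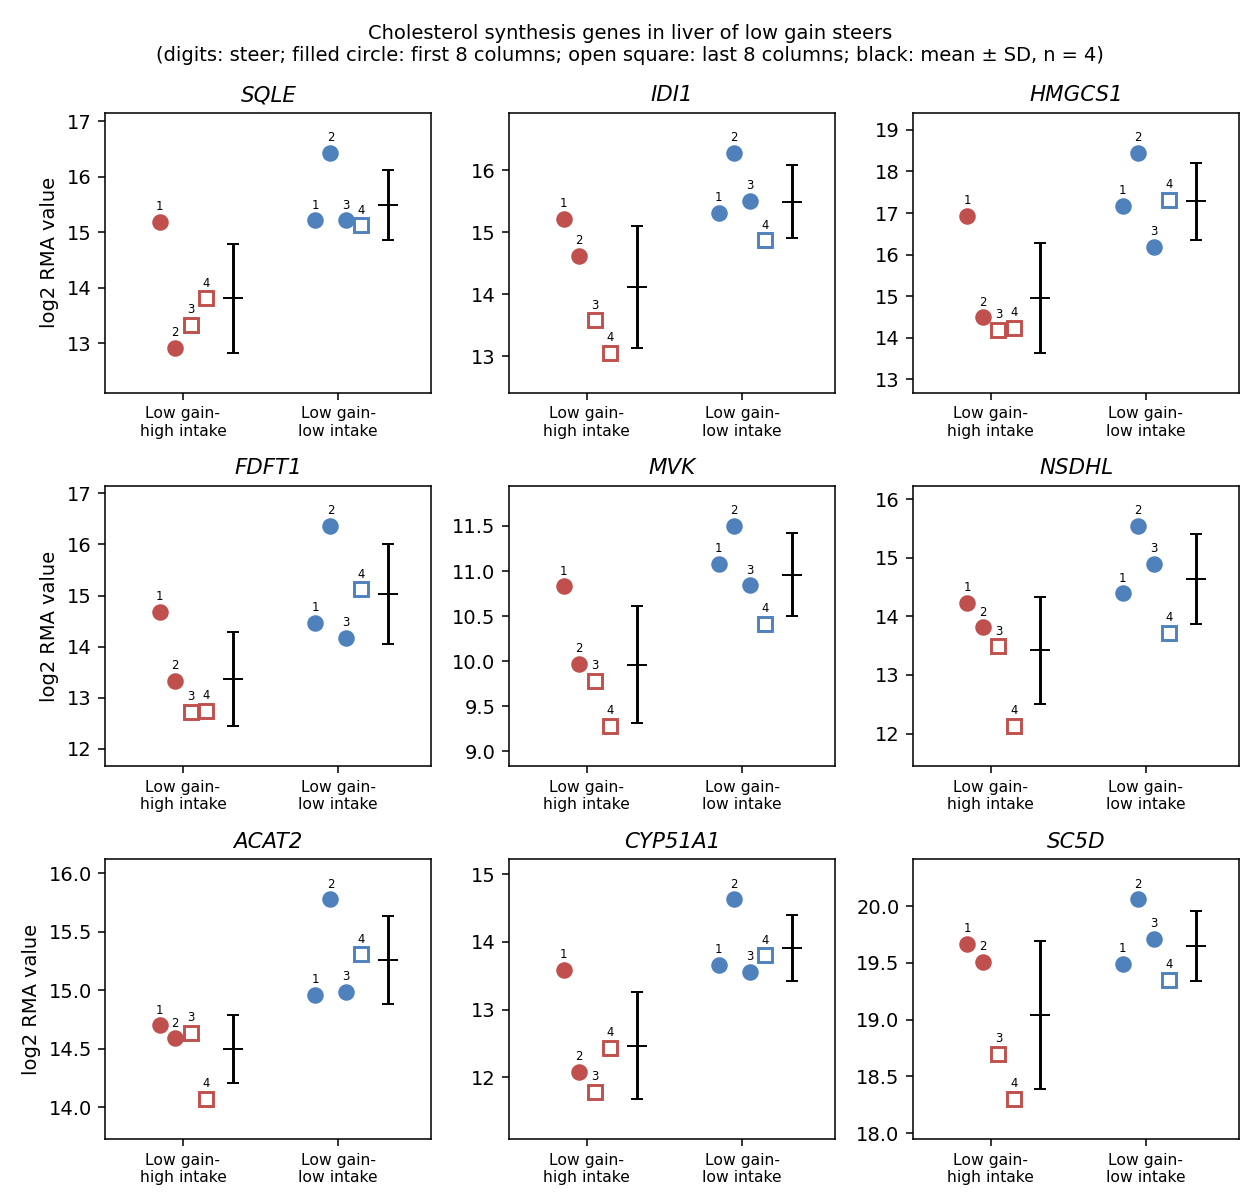
Log2 RMA value (vertical axis) of the 9 cholesterol synthesis genes with nominal P of 0.05 or less in each of the 4 low gain-high intake steers (left, red) and 4 low gain-low intake steers (right, blue). Digits name the steer, filled circles are arrays of the first 8 columns, open squares those of the last 8, and black bars are mean ± SD (n = 4). Low gain-low intake steer 2 is the highest of its group in all 9 genes, and low gain-high intake steer 1 is the highest of its group in all 9.

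The regulators SREBF2, INSIG1 and SCAP did not pass. SREBF2, which encodes SREBP-2, averaged 9.70 ± 0.37 in low gain-high intake steers and 10.03 ± 0.45 in low gain-low intake steers (SD, n = 4 each) and did not pass. INSIG1, which holds SREBP in the endoplasmic reticulum and is itself an SREBP target, had 14.64, 13.97, 16.06 and 14.36 in low gain-high intake steers, against 16.73, 17.65, 16.55 and 12.54 in low gain-low intake steers. Low gain-low intake steer 4 was the lowest of all 8 for INSIG1, and the difference of -1.11 did not pass (limma nominal P = 0.203, exact P = 0.371), whereas without that steer it was -2.22 (limma nominal P = 0.000904). Within the first 8 columns, where 2 low gain-high intake arrays met 3 low gain-low intake arrays, 19 of the 23 genes were lower in low gain-high intake steers with a median of -0.60, and within the last 8 columns, where 2 arrays met 1, 17 were lower with a median of -0.75. In both sets of columns 14 of 23 were lower, against 3486 of the 18444 symbols. PMVK, GGPS1, SCAP, NPC1 and NPC1L1 differed by less than 0.15 in either direction.

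At high gain the same list had a median difference between high and low intake of 0.02, with 12 genes higher, 11 lower and none at nominal P of 0.05 or less (0 of 23 by limma). The difference between the 2 intake contrasts, (low gain-high intake minus low gain-low intake) minus (high gain-high intake minus high gain-low intake), had a median of -0.73 over the list and passed nominal P of 0.05 or less for 4 genes, FDFT1 (-1.93 ± 0.78 SE), IDI1 (-1.42), HMGCS1 (-2.44) and SQLE (-1.68). When intake labels were exchanged within each level of gain, in 4900 arrangements, the exact P = 0.0576 for FDFT1, 0.0841 for HMGCS1, 0.0853 for IDI1 and 0.0967 for SQLE, so none of the 4 passed that test. Over all transcript clusters this test by limma passed nominal P of 0.05 or less for 753 (2.81%) and an adjusted P of 0.05 for none, with a lowest adjusted P of 1.0. Mean levels of the list were 12.28 in low gain-high intake, 13.05 in low gain-low intake, 12.60 in high gain-high intake and 12.60 in high gain-low intake steers.

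**Figure D3:**
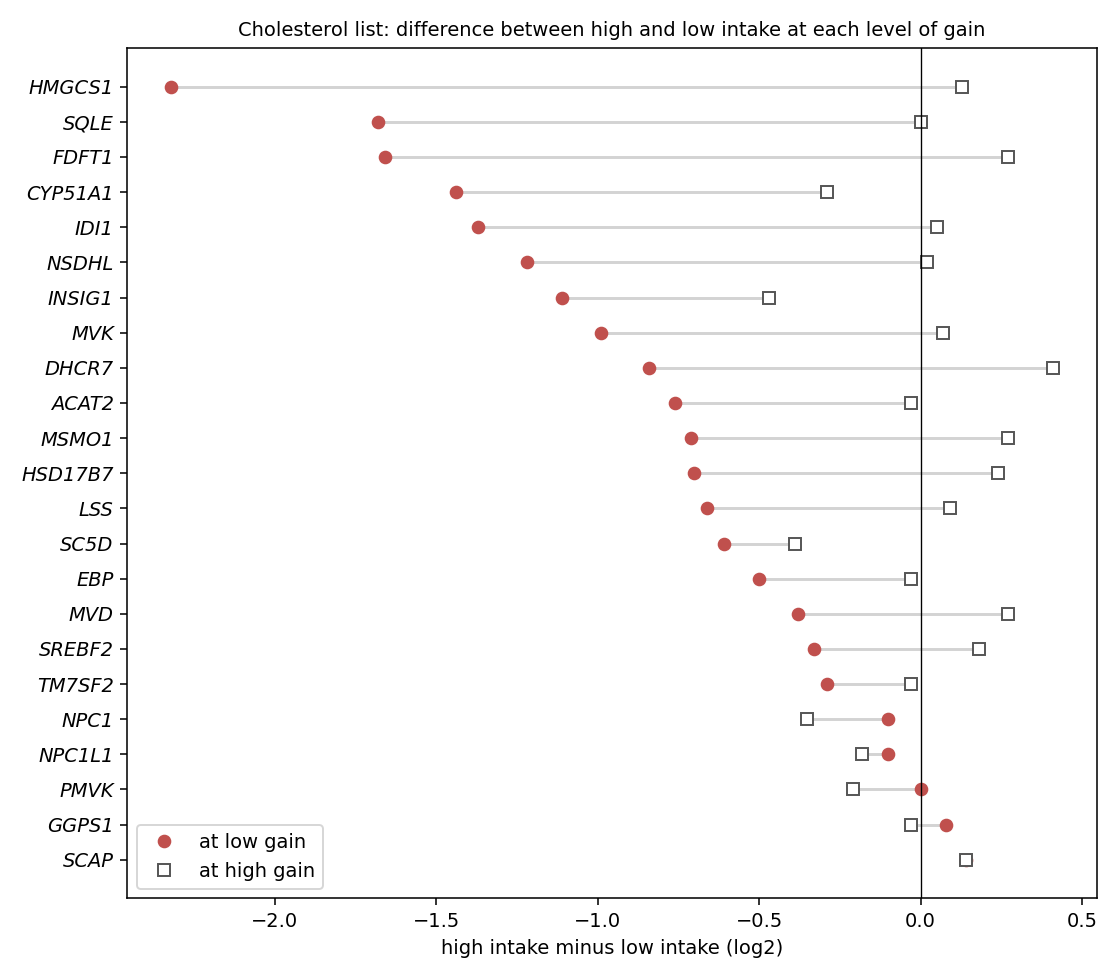
Difference between high and low intake (log2, horizontal axis) for each of the 23 genes of the cholesterol list (vertical axis, ordered by the difference at low gain), at low gain (red circles) and at high gain (open squares). The low gain points reach -2.32 (HMGCS1), while the medians are -0.70 at low gain and 0.02 at high gain.

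In cattle adipose tissue is the main site of fatty acid synthesis, and the hepatic list showed few calls. Of its 22 genes 16 had a lower mean in low gain-high intake steers, the median was -0.36 (-0.25 with the block, -0.27 after quantile normalization), and 1 passed. That gene was FASN, fatty acid synthase, with 7.34, 6.63, 6.15 and 6.13 in low gain-high intake steers, against 7.08, 9.53, 7.32 and 7.05 in low gain-low intake steers. The difference was -1.18 (limma nominal P = 0.0326, exact P = 0.114; with the block -1.07, P = 0.0517), and with low gain-low intake steer 2 left out it was -0.59 and did not pass. ACACA, acetyl-CoA carboxylase, averaged 8.71 ± 0.29 in low gain-high intake steers and 9.26 ± 0.49 in low gain-low intake steers (SD, n = 4 each), and SREBF1 averaged 9.41 ± 0.20 in low gain-high intake steers and 9.65 ± 0.51 in low gain-low intake steers. SCD, the desaturase that makes oleate, had 13.50, 13.46, 13.63 and 13.43 in low gain-high intake steers, against 11.80, 17.49, 14.40 and 14.57 in low gain-low intake steers. For SCD the low gain-low intake values lay on both sides of the narrow low gain-high intake range, and the same steer 2 was again the highest of its group. The difference of SCD was -1.06 and did not pass, it was -0.08 without that steer, and it passed at -1.98 without low gain-low intake steer 1.

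Among secreted growth factors and their binding proteins, IGFBP1 had the largest difference of the named genes. IGFBP1 binds IGF-I in blood, and in mammals its hepatic transcription is held down by insulin. Its log2 values were 12.52, 15.55, 14.80 and 14.67 in low gain-high intake steers, against 11.74, 12.69, 12.44 and 10.51 in low gain-low intake steers. The values of low gain-high intake steers 2, 3 and 4 lay above all low gain-low intake steers, and steer 1 lay just below low gain-low intake steer 2. The difference was 2.54 ± 0.77 (SE, limma nominal P = 0.00476, exact P = 0.0571; with the block 2.76, P = 0.00251). At high gain the direction was opposite, -2.01 (limma nominal P = 0.0196, exact P = 0.0857), and the difference between the 2 contrasts was 4.55 ± 1.09 (SE, limma nominal P = 0.000765, exact P = 0.00367). IGFBP1 was named in part for its small P at low gain, which enters the difference between the contrasts. The P values of that difference are therefore no independent evidence. STC2, stanniocalcin-2, a secreted glycoprotein, was 6.83 to 7.39 in low gain-high intake steers and 6.58 to 6.94 in low gain-low intake steers, a difference of 0.45 (limma nominal P = 0.0272, exact P = 0.0571; with the block 0.41, P = 0.0324). STC2 did not pass without low gain-high intake steer 2, 3 or 4, or without low gain-low intake steer 1 or 2. IGF1 averaged 16.43 ± 0.72 in low gain-high intake steers and 16.77 ± 0.72 in low gain-low intake steers, and the growth hormone receptor GHR averaged 17.29 ± 0.53 in low gain-high intake steers and 17.71 ± 0.74 in low gain-low intake steers (SD, n = 4 each). Neither of these passed the threshold, and IGFBP2 ranged from 6.69 to 11.31 in low gain-high intake steers and from 7.14 to 11.81 in low gain-low intake steers. Of the 24 genes of the list, 2 passed, both higher, against 1.51% higher calls among all symbols.

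MT1A, a metallothionein that binds zinc and is induced by zinc and glucocorticoids, was higher in low gain-high intake steers. Its values were 14.91, 18.34, 14.57 and 14.98 in low gain-high intake steers, against 13.73, 14.15, 14.22 and 11.77 in low gain-low intake steers. The groups did not overlap, but low gain-high intake steer 2 stood far above the rest, and the difference of 2.23 ± 0.98 (SE, limma nominal P = 0.0374, exact P = 0.0286; with the block 2.54, P = 0.0163) was 1.35 when that steer was left out (limma P = 0.16) and 1.66 when low gain-low intake steer 4 was (limma P = 0.125). MT2A had 12.91, 17.48, 15.17 and 14.80 in low gain-high intake steers, against 13.21, 13.19, 14.95 and 10.04 in low gain-low intake steers. The groups of MT2A overlapped (limma nominal P = 0.076, exact P = 0.257; with the block P = 0.0477), and because metallothionein genes are near copies of each other, their probes may share signal. Over all 26 genes of the metallothionein and zinc list the median difference was -0.03.

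**Figure D4:**
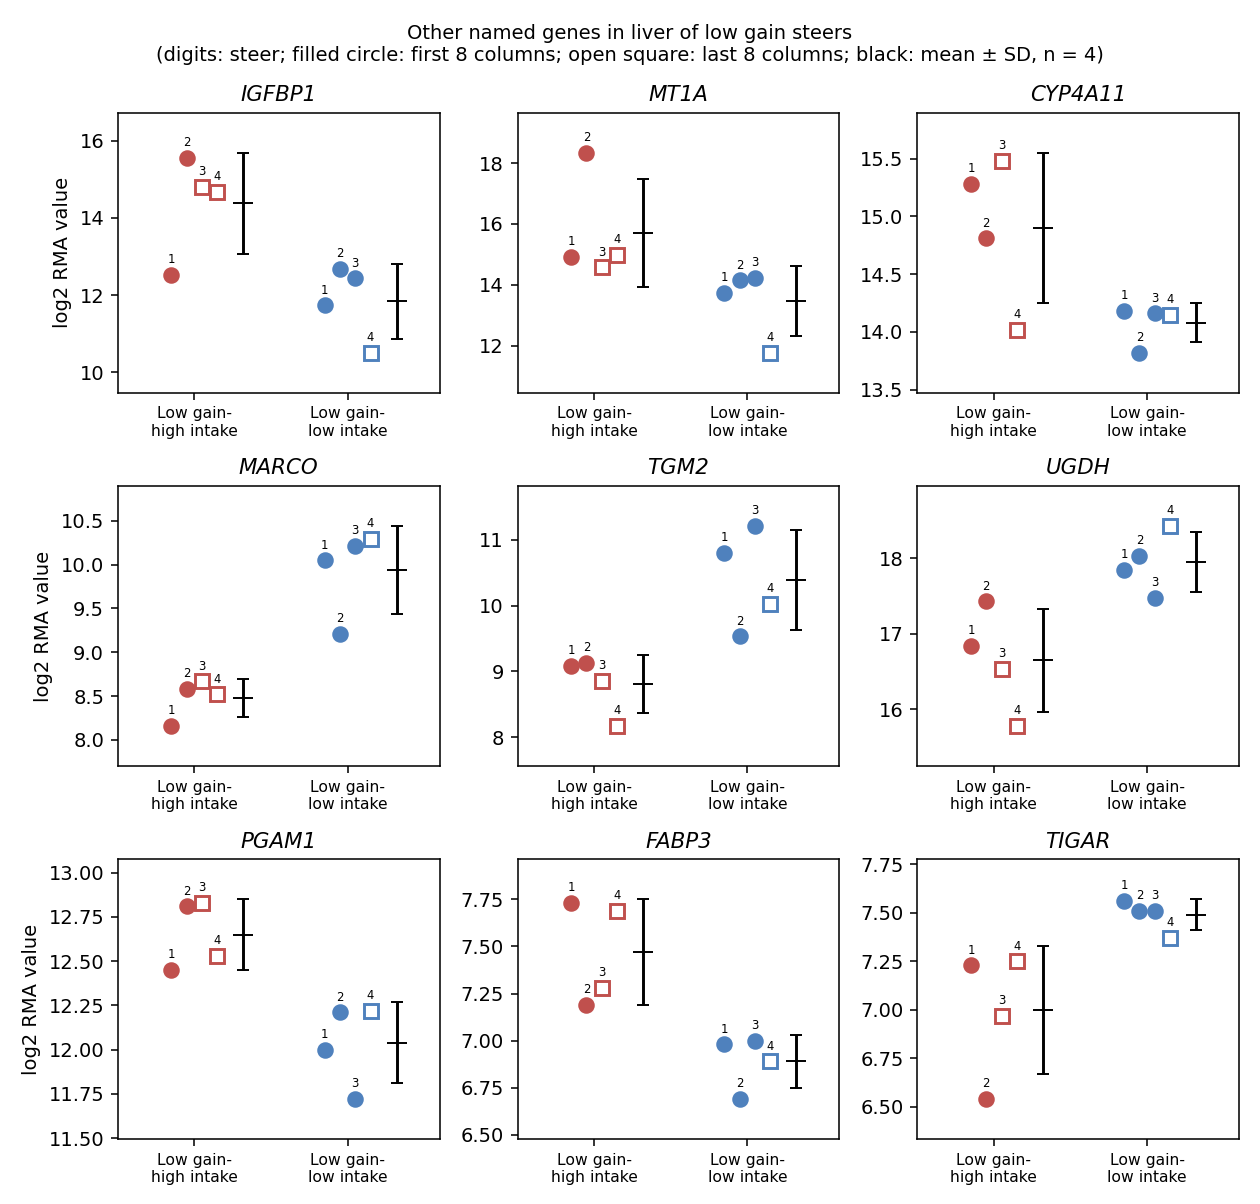
Log2 RMA value (vertical axis) of 9 further named genes in the 4 low gain-high intake steers (left, red) and the 4 low gain-low intake steers (right, blue), with the digits, symbols and error bars of the cholesterol plot (mean ± SD, n = 4). The groups do not overlap for MT1A, MARCO, TGM2, UGDH, PGAM1, FABP3 and TIGAR and overlap for IGFBP1 and CYP4A11.

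The main routes of ruminant energy supply had few or no calls. None of the 26 genes of gluconeogenesis and propionate use passed (0 at nominal P of 0.05 or less by limma, also with the block), and their median of -0.23 was -0.08 with the block and -0.06 after quantile normalization. PCK1, which commits oxaloacetate to glucose, averaged 15.47 ± 0.90 in low gain-high intake steers and 15.10 ± 1.47 in low gain-low intake steers, PC averaged 9.65 ± 0.54 in low gain-high intake steers and 9.30 ± 0.95 in low gain-low intake steers, and G6PC1 averaged 17.18 ± 0.49 in low gain-high intake steers and 17.22 ± 0.87 in low gain-low intake steers (SD, n = 4 each). None of the 37 genes of fatty acid oxidation and ketone bodies passed either (median -0.16, and 0.03 after quantile normalization), with CPT1A at 13.51 ± 1.01 in low gain-high intake steers and 13.74 ± 0.96 in low gain-low intake steers. CYP4A11, which belongs to a family that hydroxylates fatty acids at their end, had 15.28, 14.81, 15.48 and 14.02 in low gain-high intake steers, against 14.18, 13.82, 14.16 and 14.15 in low gain-low intake steers. Low gain-high intake steers 1, 2 and 3 lay above the narrow low gain-low intake range and steer 4 lay inside it, with a difference of 0.82 (limma nominal P = 0.0104, exact P = 0.114; with the block 0.86, P = 0.00885). In glycolysis, PGAM1, phosphoglycerate mutase, was 12.45 to 12.83 in low gain-high intake steers and 11.72 to 12.22 in low gain-low intake steers, and TIGAR, which removes the glycolytic activator fructose-2,6-bisphosphate, was 6.54 to 7.25 in low gain-high intake steers and 7.37 to 7.56 in low gain-low intake steers. The groups of both genes did not overlap, and these were the only 2 of the 25 glycolysis and fructose genes that passed (PGAM1 0.62, limma nominal P = 0.0281, exact P = 0.0286; TIGAR -0.49, limma nominal P = 0.0152, exact P = 0.0286). GBE1, the glycogen branching enzyme, averaged 11.51 ± 0.82 in low gain-high intake steers and 12.28 ± 0.15 in low gain-low intake steers (SD, n = 4 each), a difference of -0.77 that was -0.71 with the block. None of the 22 urea cycle genes passed (median -0.21, and -0.03 after quantile normalization), and the rate-limiting enzyme of bile acid synthesis, CYP7A1, ranged from 10.26 to 17.69 in low gain-high intake steers and from 12.93 to 18.57 in low gain-low intake steers.

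In amino acid metabolism, BCAT1, a branched-chain aminotransferase, was 5.95 to 6.54 in low gain-high intake steers and 5.53 to 5.78 in low gain-low intake steers, with no overlap, but its signal was near the bottom of the array (18.3rd percentile of all transcript clusters). MTR, methionine synthase, had 9.97, 9.45, 9.38 and 8.55 in low gain-high intake steers, against 10.04, 10.28, 10.25 and 9.84 in low gain-low intake steers, with a difference of -0.76 (limma nominal P = 0.00952, exact P = 0.0571; with the block -0.69, P = 0.0128). CSAD, which makes the taurine precursor hypotaurine, averaged 9.09 ± 0.61 in low gain-high intake steers and 10.16 ± 0.94 in low gain-low intake steers (SD, n = 4 each), but the difference was -1.47 within the first 8 columns and 0.11 within the last 8. The transporters SLC7A5 and SLC7A8, light chains for large neutral amino acids, were lower without overlap. SLC7A5 was 5.56 to 6.30 in low gain-high intake steers and 6.44 to 6.80 in low gain-low intake steers, and SLC7A8 was 6.58 to 6.78 in low gain-high intake steers and 6.89 to 7.05 in low gain-low intake steers. Of the 42 amino acid transporters 2 passed (both lower) and 5 did not overlap and were lower, against 0.586% of all symbols, with a list median of -0.02.

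Enzymes that conjugate foreign compounds and bile pigments were lower for some members. Of the 35 phase II genes 25 had a lower mean in low gain-high intake steers, with a median of -0.28 (-0.31 with the block, -0.19 after quantile normalization), and 2 passed, both lower. These were MGST1, a microsomal glutathione transferase, at 21.02, 20.88, 20.93 and 20.08 in low gain-high intake steers, against 21.22, 21.13, 21.38 and 21.38 in low gain-low intake steers, and GSTM3, at 15.83 ± 0.89 in low gain-high intake steers and 16.78 ± 0.70 in low gain-low intake steers (SD, n = 4 each). MGST1 lay within 0.05 of the highest value of the array in low gain-high intake steer 1 and in low gain-low intake steers 1 and 2, the top of the scale on those arrays. Its groups did not overlap, but the difference of -0.55 (limma nominal P = 0.0224, exact P = 0.0286) was -0.21 after quantile normalization (P = 0.248) and -0.33 with low gain-high intake steer 4 left out. GSTM3 was likewise -0.95 as deposited (limma nominal P = 0.0366, exact P = 0.143) and -0.61 after quantile normalization (P = 0.122). UGDH, which makes the UDP-glucuronic acid that glucuronidation uses, had 16.84, 17.43, 16.54 and 15.78 in low gain-high intake steers, against 17.85, 18.03, 17.48 and 18.43 in low gain-low intake steers. Its groups did not overlap, and the difference of -1.30 ± 0.44 (SE, limma nominal P = 0.00981, exact P = 0.0286; with the block -1.24, P = 0.0163) was -0.97 after quantile normalization (P = 0.0134).

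Genes of protein secretion and folding had mostly lower means. Of the 61 genes of endoplasmic reticulum folding and the unfolded protein response 52 were lower in mean (48 with the block, 47 after quantile normalization), with a median of -0.27 (-0.22 with the block, -0.18 after quantile normalization), and 3 passed as lower and 1 as higher. The 3 were SEC61B, part of the channel for import into the reticulum (-0.53, limma nominal P = 0.0157, exact P = 0.0571), SSR1, a subunit of the translocon-associated protein complex (-0.60, limma nominal P = 0.0187, exact P = 0.0857), and SRP72, a part of the signal recognition particle (-0.49, limma nominal P = 0.0252, exact P = 0.143). SSR4, another subunit of the complex of SSR1, was higher, at 13.01 ± 0.15 in low gain-high intake steers and 12.57 ± 0.29 in low gain-low intake steers (SD, n = 4 each). Among chaperones, the chaperonin subunit CCT5 had 9.51, 10.16, 9.57 and 8.96 in low gain-high intake steers, against 10.42, 10.36, 10.48 and 10.22 in low gain-low intake steers, with no overlap (-0.82, limma nominal P = 0.00569, exact P = 0.0286; with the block -0.76, P = 0.00819). DNAJC5 (-0.63, limma nominal P = 0.00594, exact P = 0.0857) and DNAJA2 (-0.75, limma nominal P = 0.0174, exact P = 0.0857) were lower as well, and 3 of 45 heat shock genes passed, all lower, with a median of -0.22 at low gain (-0.13 after quantile normalization) and also of -0.22 at high gain. The heat shock median was -0.38 within the first 8 columns (40 of 45 lower) but 0.14 within the last 8 (19 lower). For the endoplasmic reticulum list these medians were -0.2 and -0.05, and over all symbols 0.0 and 0.1. Among all 18444 symbols 9920 were lower in mean as deposited, 7995 with the block and 9403 after quantile normalization. Of 49 proteasome genes 42 were lower in mean as deposited, 36 with the block and 33 after quantile normalization, with medians of -0.17, -0.10 and -0.10, and 2 passed (lower). Of 62 respiratory chain genes 54 were lower as deposited, 44 with the block and 44 after quantile normalization, with medians of -0.20, -0.13 and -0.08. NDUFC1 and NDUFA7 passed, both lower, and NDUFA7 was -0.70 as deposited but -0.45 without low gain-high intake steer 4. Of 64 ribosomal protein genes none passed as deposited, and 2 passed as higher and 1 as lower after quantile normalization. Of the 44 complement and coagulation genes 39 were lower in mean (28 after quantile normalization) and none passed, and their median of -0.27 was -0.10 with the block and -0.06 after quantile normalization.

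**Figure D5:**
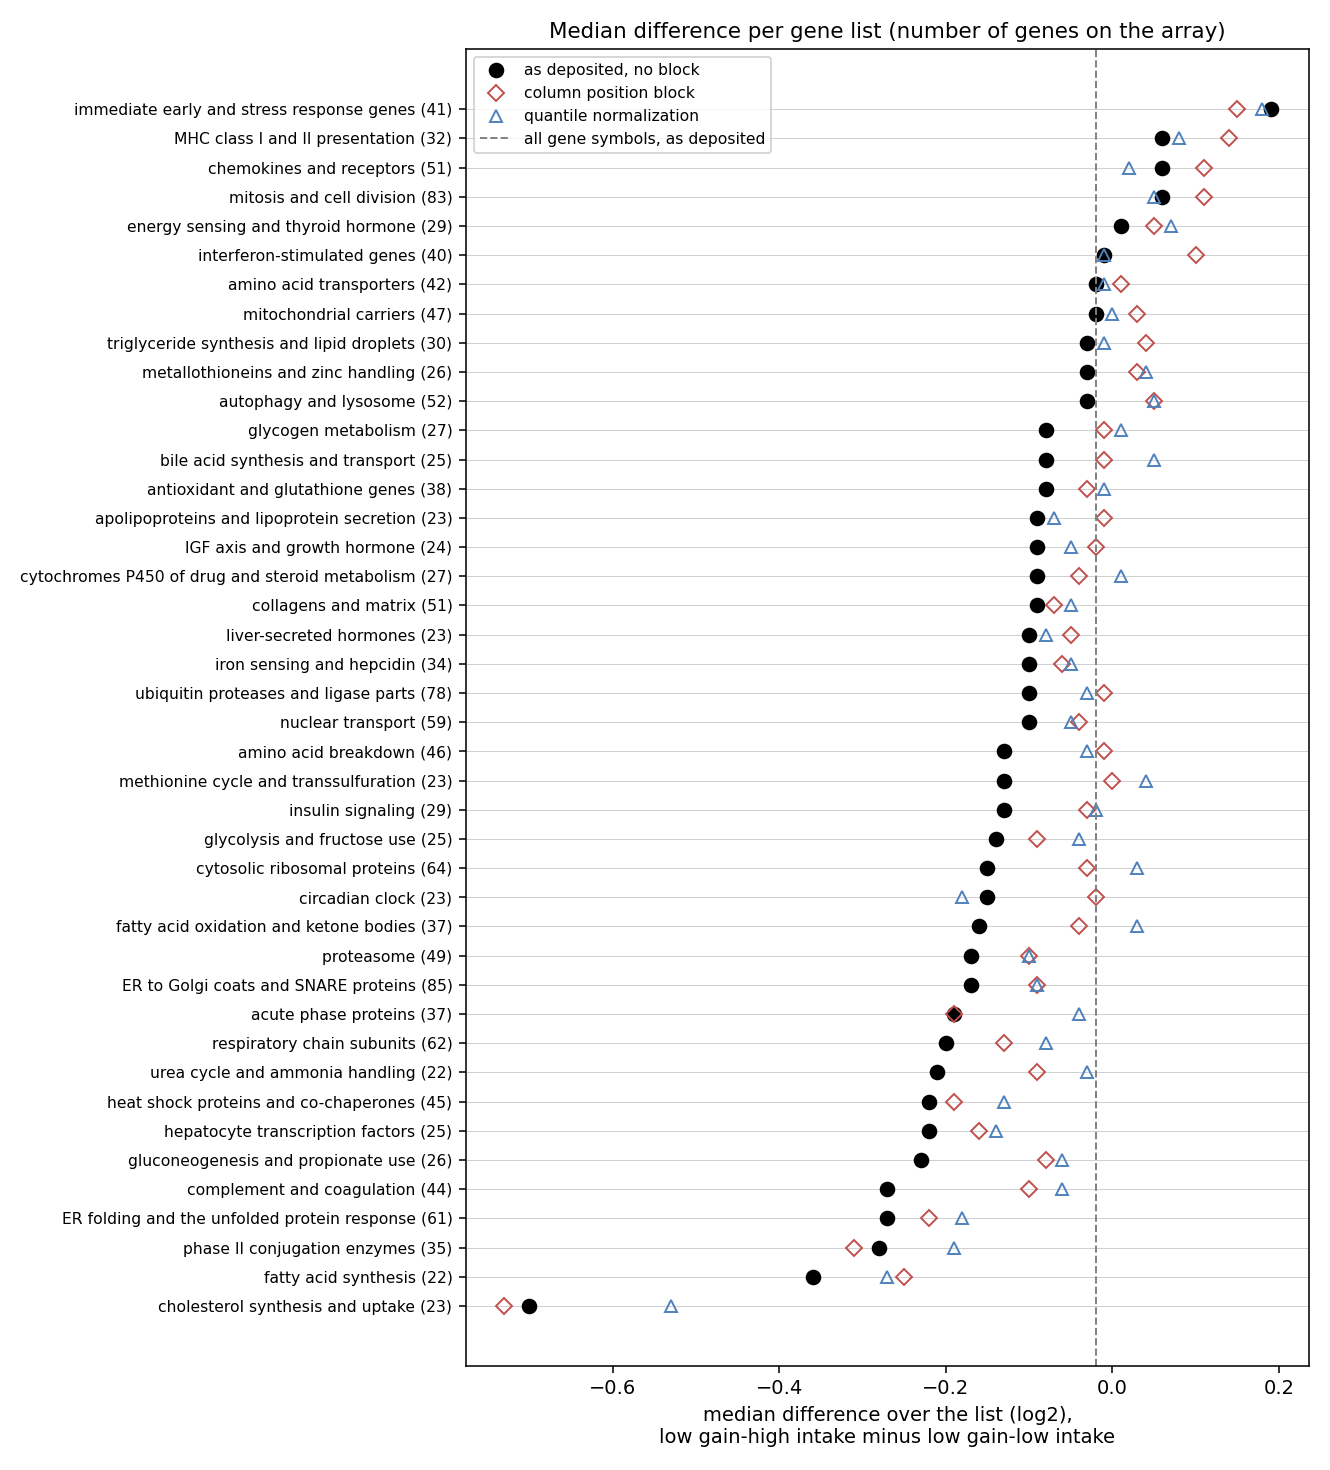
Median log2 difference, low gain-high intake minus low gain-low intake (horizontal axis), over the genes of each list with at least 20 genes on the array (vertical axis, number of genes in parentheses), as deposited (black circles), with column position as a block (red diamonds) and after quantile normalization (blue triangles). The dashed line is the median over all gene symbols, -0.02. The cholesterol list lies lowest in each of the 3 settings (-0.70, -0.73 and -0.53), and complement and coagulation shift from -0.27 as deposited to -0.06 after quantile normalization.

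MARCO, a scavenger receptor of macrophages, was lower in low gain-high intake steers. Its values were 8.16, 8.58, 8.67 and 8.52 in low gain-high intake steers, against 10.05, 9.21, 10.21 and 10.29 in low gain-low intake steers. The groups did not overlap, and the difference was -1.46 ± 0.44 (SE, limma nominal P = 0.00444, exact P = 0.0286; with the block -1.60, P = 0.00153). It was -1.45 within the first 8 columns and -1.70 within the last 8, where low gain-low intake steer 4 stood alone for its group. Of the 9 markers of Kupffer cells and macrophages MARCO alone passed, and the list had mean levels of 10.33 to 12.22 in low gain-high intake steers and 11.19 to 12.24 in low gain-low intake steers. Unlike MARCO, the list changed direction between the sets of columns. Its median difference was 0.57 within the first 8 columns, with 2 of the 9 lower, and -0.61 within the last 8, with all 9 lower. CD68, a general macrophage marker, had 12.29, 11.56, 9.71 and 9.03 in low gain-high intake steers, against 10.86, 10.02, 11.50 and 9.57 in low gain-low intake steers, so its groups overlapped. PLA2G7, a secreted phospholipase that macrophages make, was 10.95 to 11.78 in low gain-high intake steers and 12.26 to 13.39 in low gain-low intake steers, with no overlap (-1.50, limma nominal P = 0.0439, exact P = 0.0286; with the block -1.45, P = 0.063). With a single steer left out, PLA2G7 passed only without low gain-high intake steer 3 or without low gain-low intake steer 2. TGM2, tissue transglutaminase, had 9.08, 9.13, 8.86 and 8.17 in low gain-high intake steers, against 10.80, 9.53, 11.21 and 10.03 in low gain-low intake steers, with no overlap. Its difference was -1.58 ± 0.52 (SE, limma nominal P = 0.00787, exact P = 0.0286; with the block -1.61, P = 0.0102), at high gain it was 0.72, and the difference between the 2 contrasts was -2.30 (limma nominal P = 0.00659, exact P = 0.0151). TGM2 was named for its lack of overlap at low gain, which enters the difference between the contrasts. The P values of that difference are therefore no independent evidence. TSKU, a secreted protein of liver, was 12.46 to 13.62 in low gain-high intake steers and 13.72 to 15.01 in low gain-low intake steers. It was named for its lack of overlap, and its nominal P was 0.0708 by limma (exact P = 0.0286).

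Markers of lymphocytes had higher means in low gain-high intake steers without passing the test. All 9 markers of T and NK cells were higher in mean, 0 passed nominal P of 0.05 or less by limma (1 with the block, CD2), and the median difference was 0.31 (0.37 with the block), against -0.21 at high gain. The mean level of the list was 8.08 in low gain-high intake steer 1 and 6.98 to 7.13 in the other 3 of that group, against 6.85 to 7.0 in low gain-low intake steers. Within the first 8 columns, which hold steer 1, the median difference was 0.57, and within the last 8 it was 0.03 with 3 of the 9 markers lower. CD3E, a defining part of the T cell receptor complex, had 11.54, 8.85, 9.07 and 9.71 in low gain-high intake steers, against 9.44, 9.0, 9.09 and 8.59 in low gain-low intake steers. Low gain-high intake steer 1 was thus the highest of all 8 and the others overlapped with the low gain-low intake range, and the difference of 0.76 (limma nominal P = 0.126, exact P = 0.286) was 0.18 without steer 1. CD2, an adhesion molecule of T cells, was 6.23 to 7.66 in low gain-high intake steers and 6.05 to 6.36 in low gain-low intake steers (0.59, limma nominal P = 0.0508, exact P = 0.0857; with the block 0.64, P = 0.0361), and the B cell marker CD79A was 6.37 to 7.45 in low gain-high intake steers and 5.99 to 6.48 in low gain-low intake steers. The part of these cells in any other result was not tested. Of the acute phase list none of 37 genes passed (median -0.19, and -0.04 after quantile normalization), and haptoglobin (HP) ranged from 7.86 to 15.43 in low gain-high intake steers and from 9.48 to 13.30 in low gain-low intake steers. ALB and TTR, which define hepatocytes, were between 20.95 and 22.59 in low gain-high intake steers and between 21.12 and 22.63 in low gain-low intake steers, but ALB lay within 0.05 of the highest value of the array in 7 of the 8 steers and TTR in 5, so no difference between the groups is read from them. STAB2, a marker of sinusoidal endothelium, averaged 12.94 ± 0.39 in low gain-high intake steers and 13.28 ± 0.29 in low gain-low intake steers, while KRT19 of bile ducts averaged 6.04 ± 0.60 in low gain-high intake steers and 5.60 ± 0.39 in low gain-low intake steers (SD, n = 4 each). Markers of gut, muscle and fat cells had mean levels of 5.93 to 6.06 in low gain-high intake steers and 5.94 to 6.06 in low gain-low intake steers, below the medians of the arrays.

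Cell division and early response genes were among the few lists with positive medians. Of 83 mitosis genes 54 were higher in mean, 4 passed as higher and 1 as lower, and the median was 0.06 (0.11 with the block). These genes were dim, with a median level of 6.75. All symbols with means of 6.34 to 7.42 had a median difference of 0.02, and of 0.07 with the block, so the list lay close to symbols of like level. With the block 11 passed as higher and 1 as lower, against 2.88% higher calls among all symbols, but 3 passed as higher after quantile normalization and 4 with quantile normalization and the block together. CDC20, which activates the anaphase-promoting complex, averaged 6.75 ± 0.33 in low gain-high intake steers and 6.21 ± 0.19 in low gain-low intake steers (SD, n = 4 each). Of 41 immediate early and stress response genes 30 were higher in mean and 1, PLK3, passed, with a median of 0.19 (0.15 with the block), against -0.30 at high gain. Within the first 8 columns the median of this list was 0.0, with 20 genes lower. It was 0.37, with 6 lower, within the last 8, where low gain-low intake steer 4 stood alone for its group. EGR1, an early growth response factor, had 8.36, 8.85, 10.95 and 8.63 in low gain-high intake steers, against 8.55, 8.06, 7.83 and 7.74 in low gain-low intake steers. Its difference of 1.15 (limma nominal P = 0.146, exact P = 0.0571) became 0.57 with low gain-high intake steer 3 left out, at high gain it was -2.23 (exact P = 0.0571), and the difference between the 2 contrasts was 3.38 (limma nominal P = 0.00592, exact P = 0.00286). EGR1 was named after its values were seen, so these P values are no independent evidence. No transcript cluster passed adjustment for the difference between the contrasts.

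The smallest nominal P of any gene symbol belonged to OR4C12DP, an olfactory receptor sequence of the platform annotation with signal near the middle of the array. It had 7.06, 7.01, 6.69 and 7.02 in low gain-high intake steers, against 8.08, 7.49, 7.82 and 7.64 in low gain-low intake steers, with a difference of -0.81 (limma nominal P = 0.00018, exact P = 0.0286; with the block -0.81, P = 0.00018). Further genes among the 20 with the smallest P were higher without overlap, namely LHFPL5 (0.91), PACRGL (0.68), OR9R3 (0.70), NIM1K (0.65), SEPTIN1 (0.56), NWD1 (0.56) and ARID3B (0.55). All of these were below 8.7 in each of the 8 steers. HMGB1, a chromatin protein that can also signal outside cells, had 10.32, 10.44, 9.75 and 9.38 in low gain-high intake steers, against 10.74, 10.71, 10.75 and 10.69 in low gain-low intake steers, and its second transcript cluster differed by -0.74, close to the -0.75 of the first (limma nominal P = 0.00393, exact P = 0.0286; with the block -0.64, P = 0.00105). Lower without overlap were also ZNF84 (-0.61) and ZNF175 (-0.62), both zinc finger genes. CAMK4, a calcium-dependent kinase, averaged 7.20 ± 0.52 in low gain-high intake steers and 7.91 ± 0.30 in low gain-low intake steers, and the mitophagy kinase PINK1 averaged 8.68 ± 0.48 in low gain-high intake steers and 9.51 ± 0.54 in low gain-low intake steers (SD, n = 4 each). CABYR, a calcium-binding protein first known from sperm, was 9.60 to 10.06 in low gain-high intake steers and 7.43 to 9.45 in low gain-low intake steers, with no overlap and a difference of 1.26 (limma nominal P = 0.0305, exact P = 0.0286; with the block 1.06, P = 0.0444).

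The study had itself assayed 12 genes by quantitative RT-PCR, which it had chosen from these arrays, so their array values are no independent evidence. It compared them between other pairs of groups, none of which was this contrast. By RT-PCR only FABP3, PLK3 and TIGAR passed the study's threshold for that assay, which was looser than its threshold for the arrays. For TIGAR, PTK2B and SMAD6 the RT-PCR and array differences printed by the study had opposite directions. The study itself counted more of the 12 as not matching the arrays in pattern than these directions alone show. TAP2, among the 12, was not matched by symbol here, so no value is given for it. Of the others, IGFBP1, FABP3, SMAD6, NCAPG, PLK3 and PTK2B were higher and TIGAR was lower at nominal P of 0.05 or less in this contrast. The designed primer pairs of 3 of them are shown, 5′ to 3′, because they mark the transcripts of the binding protein with the largest difference and of 2 genes whose groups did not overlap in opposite directions.
IGFBP1 forward: gagagcttgagggctcttga
IGFBP1 reverse: ctccctggctaatctgtcca
FABP3 forward: ctcttctgccagtgggctac
FABP3 reverse: caggagaatttccccagtca
TIGAR forward: gcatgggattttggagaaga
TIGAR reverse: cttctgcaaccccatatttc
FABP3, a fatty acid binding protein of heart and muscle, had 7.73, 7.19, 7.28 and 7.69 in low gain-high intake steers, against 6.98, 6.69, 7.0 and 6.89 in low gain-low intake steers. The groups did not overlap, and the difference was 0.58 (limma nominal P = 0.0177, exact P = 0.0286; with the block 0.54, P = 0.0236). NCAPG, a condensin subunit, had 6.12, 6.10, 6.07 and 6.20 in low gain-high intake steers, against 5.83, 5.76, 5.82 and 5.67 in low gain-low intake steers, a small and even difference of 0.35 (limma nominal P = 0.0321, exact P = 0.0286; with the block 0.34, P = 0.0299) at low signal. SMAD6, an inhibitor of BMP signaling, was 7.65 to 7.83 in low gain-high intake steers and 7.23 to 7.50 in low gain-low intake steers, with no overlap. PTK2B, a calcium-activated tyrosine kinase, had 8.19, 7.80, 7.32 and 7.38 in low gain-high intake steers, against 7.02, 7.14, 7.44 and 7.10 in low gain-low intake steers. Its difference of 0.49 (limma nominal P = 0.0411, exact P = 0.0857), 0.32 without low gain-high intake steer 1, was opposite to that at high gain, -0.60 (limma nominal P = 0.016, exact P = 0.0571), and the difference between the 2 contrasts was 1.09 ± 0.31 (SE, limma nominal P = 0.00315, exact P = 0.00327).

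The study listed 22 genes for selenocysteine synthesis, chemokine signaling and ubiquitination, of which 20 were matched by symbol here, and 4 of those were higher and 4 were lower at nominal P of 0.05 or less, and the same counts held with the block. The list was chosen on these samples and is no independent evidence of direction. USP40, a ubiquitin protease, had 10.30, 10.10, 10.14 and 10.65 in low gain-high intake steers, against 9.79, 9.76, 10.08 and 9.57 in low gain-low intake steers, with no overlap (0.50, limma nominal P = 0.00791, exact P = 0.0286). SKP1, a part of SCF ubiquitin ligases, had 14.52, 14.43, 14.11 and 14.26 in low gain-high intake steers, against 14.63, 14.60, 15.00 and 14.83 in low gain-low intake steers, also with no overlap (-0.43, limma nominal P = 0.0117, exact P = 0.0286), but after quantile normalization its difference was -0.19 (P = 0.412). USP14, a proteasome-bound ubiquitin protease, averaged 9.76 ± 0.19 in low gain-high intake steers and 10.26 ± 0.25 in low gain-low intake steers, and PLCG1, a phospholipase that acts downstream of receptors, averaged 7.43 ± 0.26 in low gain-high intake steers and 7.03 ± 0.16 in low gain-low intake steers (SD, n = 4 each).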

How the data were processed

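Liver RNA of 16 steers, 4 per class of gain and intake, was hybridized to Bovine Gene 1.1 ST array strips, 1 array per steer. The authors normalized the arrays in Affymetrix Expression Console with a GC count normalization, the Signal Space Transformation and RMA, and deposited log2 values per transcript cluster; the submitters' processing notes also name Transcriptome Analysis Console, and the versions and the build were not stated in what was used here. Arrays hold no read depth, so their number limits the precision.

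Here, limma 3.58.1 in R 4.3.3 was fitted to the deposited log2 values of all 16 arrays with 1 mean per group. The main contrast was low gain-high intake minus low gain-low intake, with Benjamini-Hochberg adjustment over 26773 transcript clusters, and a second contrast was its difference from the same comparison at high gain. The study's threshold, a nominal P of 0.05 or less, was kept. Single genes also had a two-sided exact permutation test over the 70 partitions of 8 steers (numpy 2.4.6, scipy 1.17.1). Column position in the value table is called a block; nothing in the labels says what it stands for. Gene names came from the platform annotation: 18790 transcript clusters had 1 symbol, 385 several and 7598 none, and no symbol needed an update from RefSeq (18003 IDs matched). A gene with several transcript clusters was represented by the one with the highest mean. The fit was tested on simulated data.

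Named genes were the 20 symbols with the smallest P, the 8 further ones with the largest difference among those whose groups did not overlap, up to 2 members of each of 56 lists at P of 0.05 or less, markers of cell types, genes assayed by the study with qRT-PCR and genes of intake response. The other genes of the cholesterol list, SSR4, SRP72, USP14, PLCG1, CD2, EGR1 and G6PC1 were named after their values were seen. The contrast, the genes and the lists were chosen with earlier results of these data known. P values measure the spread between steers only. The labels do not give the harvest day, the RNA integrity or the breed of each steer. The study's methods report that RNA integrity varied between the samples. Alternatives were the block, the 8 low gain arrays alone, quantile normalization, subtraction of array medians, omission of transcript clusters below the median mean, the one-way model without moderation, exchange of steers only within column positions, the mean of a gene's several transcript clusters, and omission of each array in turn. Quantile normalization together with the block, differences within each set of columns, and exact tests of the high gain contrast and of the difference of the contrasts (4900 arrangements of intake labels within gain) were added after seeing the data.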

Additional observations from a re-analysis of the deposited data

Results flagged for a closer look

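In 200 sets of 4 steers (the genes named here in each of the 2 low gain groups), the gap between the most extreme steer and the nearest of the others relative to the range of the group, exceeded Dixon's 95% critical value in 15 sets; chance gives about 1 in 20. Low gain-high intake steer 1 was the highest of its group for HMGCS1 (16.93) and the lowest for PLK3 (7.27). Low gain-high intake steer 2 was the highest for MT1A (18.34), and low gain-high intake steer 3 was the lowest for OR4C12DP (6.69). Low gain-high intake steer 4, whose array correlated least with the others, was the lowest for MGST1 (20.08), SAA3 (10.52) and NDUFA7 (10.39) and the highest for CD79A (7.45). Low gain-low intake steer 2 was the highest for SQLE (16.43) and FASN (9.53) and the lowest for CYP4A11 (13.82). Low gain-low intake steer 3 was the highest for IGFBP2 (11.81) and LEPR (11.75), and low gain-low intake steer 4 was the lowest for GSTM3 (15.74) and AGPAT3 (10.82).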

How the results depend on the processing

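The count of 868 transcript clusters at nominal P of 0.05 or less was 341 when the dim ones were left out, where 13387 were tested, and 585 to 1551 without 1 low gain steer, namely 585 when low gain-high intake steer 4 was left out, 1362 and 1375 when steer 1 or 2 of that group was, and 1551 when low gain-low intake steer 4 was, the only steer of its group in the last 8 columns. The count for the difference of the 2 intake contrasts, 753, was 1322 with the block, 294 without dim transcript clusters and 575 to 913 without 1 of the 16 steers. The 9 lower cholesterol genes were 4 to 10 without 1 steer. No adjusted P fell below 0.05 in either contrast under any of these settings. Of the 60 named genes at nominal P of 0.05 or less none changed direction under any model fit, and 25 kept a model P of 0.05 or less in each of them, among them SQLE, IDI1, HMGCS1, FDFT1, IGFBP1, MARCO, TGM2 and UGDH. Of these 25, 15 passed the exact test, 15 the exact test within column sets and 12 both, with MARCO and UGDH among the 12 and SQLE, IDI1, HMGCS1, FDFT1, IGFBP1 and TGM2 not. UGDH and TGM2 were named for lack of overlap, so their exact P over all partitions was fixed by that choice. Most of the others were named for a small P by limma on the same arrays, so these counts are no independent evidence. Of the 60, 56 passed with the block, 50 after quantile normalization and 37 without low gain-high intake steer 4. FASN, SC5D, PLA2G7 and NDUFA7 passed as deposited but not with the block. Without low gain-low intake steer 2 the median of the cholesterol list was -0.45. No paired analysis was possible because the labels give no replicate numbers that the groups share. With 4 arrays per group, small differences are not detectable.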
